A study of Mus musculus with 22 samples.

Results

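A set of 9 genes encoding epithelial and collecting duct transcription factors was followed through a ChIP-seq study (chromatin immunoprecipitation with sequencing) of CREB1 and C/EBP beta in mpkCCD cells, clone 11, an immortal mouse line derived from the cortical collecting duct that is sensitive to vasopressin. The 9 genes, out of 21631 protein-coding genes on 20 chromosomes, were Ehf, Elf3, Elf5, Grhl1, Grhl2, Emx2, Gata2, Gata3 and Tfcp2l1. They were chosen by name for their roles in epithelia, with C/EBP beta peaks at Ehf, Grhl2 and Emx2 already known. A peak was assigned to a gene when its centre lay inside the gene or within 100 kb of it. The groups were C/EBP beta after dDAVP (2 libraries), C/EBP beta after vehicle (2), CREB1 after dDAVP (4) and CREB1 after vehicle (4). dDAVP, an analog of vasopressin selective for the V2 receptor, was given at 0.1 nM for 30 min. All cells had been grown on permeable supports and then kept for 24 hr without serum and hormones. The line is 1 clone, so the spread between animals is not represented. The files held 1 peak list per antibody and treatment, with no reads, and every C/EBP beta peak is named for replicate 1. No value below therefore has a replicate error, read depth is unknown, and the treatment could not be tested. The lists hold no expression values, so the collecting duct identity of the cells was not checked against marker RNA.

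Collecting duct cells are epithelial cells whose identity rests on several families of DNA-binding proteins. Ehf, Elf3 and Elf5 belong to the epithelial branch of the ETS family, which binds GGAA cores. Grhl1 and Grhl2 are grainyhead factors that keep up cell junction genes, and Tfcp2l1 is a relative of that family that patterns the cell types of the mouse collecting duct. Gata2 and Gata3 are zinc finger factors of the nephric duct and its derivatives, and Emx2 is a homeodomain factor needed for kidney formation from the ureteric bud in the mouse. CREB1 is the activator that protein kinase A phosphorylates when cAMP rises, as it does after vasopressin. C/EBP beta is a leucine zipper factor of stress and differentiation.

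C/EBP beta peaks stood at most of these genes after dDAVP, and at Ehf alone after vehicle. In the dDAVP list, 7 of the 9 genes had a peak inside the gene or within 100 kb, where 29.5% of all protein-coding genes did. In the vehicle list the count was 1 of 9, where 3.47% of all protein-coding genes had a peak. The lists differ in length, with 2401 peaks after dDAVP and 209 after vehicle. When only the 209 dDAVP peaks with the highest scores were counted, 2 of the 9 genes had one (Emx2 and Elf3), where 3.74% of all genes did. Within 5 kb, 5 of the 9 genes had a dDAVP peak (Ehf, Grhl1, Grhl2, Emx2 and Tfcp2l1), against 7.83% of all genes, and Ehf alone had a vehicle peak, against 0.781% of all genes. Elf5 and Gata2 had no peak in any of the 4 lists within 100 kb. The earlier choice of these genes was made with C/EBP beta peaks at Ehf, Grhl2 and Emx2 known, so the counts describe the genes and do not test them.

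Between them the 7 genes had 12 separate dDAVP peaks. Grhl1 and Grhl2 had 3 each, Gata3 had 2, and Ehf, Elf3, Emx2 and Tfcp2l1 had 1 each. At least 3 peaks were present at 2.38% of all protein-coding genes. The windows of the 9 genes covered 2.08 Mb in 8 separate regions, since those of Ehf and Elf5 run into each other. In these windows the dDAVP list held 5.78 peaks per Mb and the vehicle list 0.482 per Mb. Between the outermost genes of the 20 chromosomes, the dDAVP list held 0.923 peaks per Mb and the vehicle list 0.0804 per Mb. The density at these genes was thus higher than the genome's in both C/EBP beta lists, and a single peak stands behind the vehicle value. The genome values take in stretches far from any gene, and the density around all protein-coding genes was not computed. The 9 genes were longer than most, with a median of 38.9 kb against 17.3 kb for all protein-coding genes. The part of gene length in these counts was not tested.

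**Figure D1:**
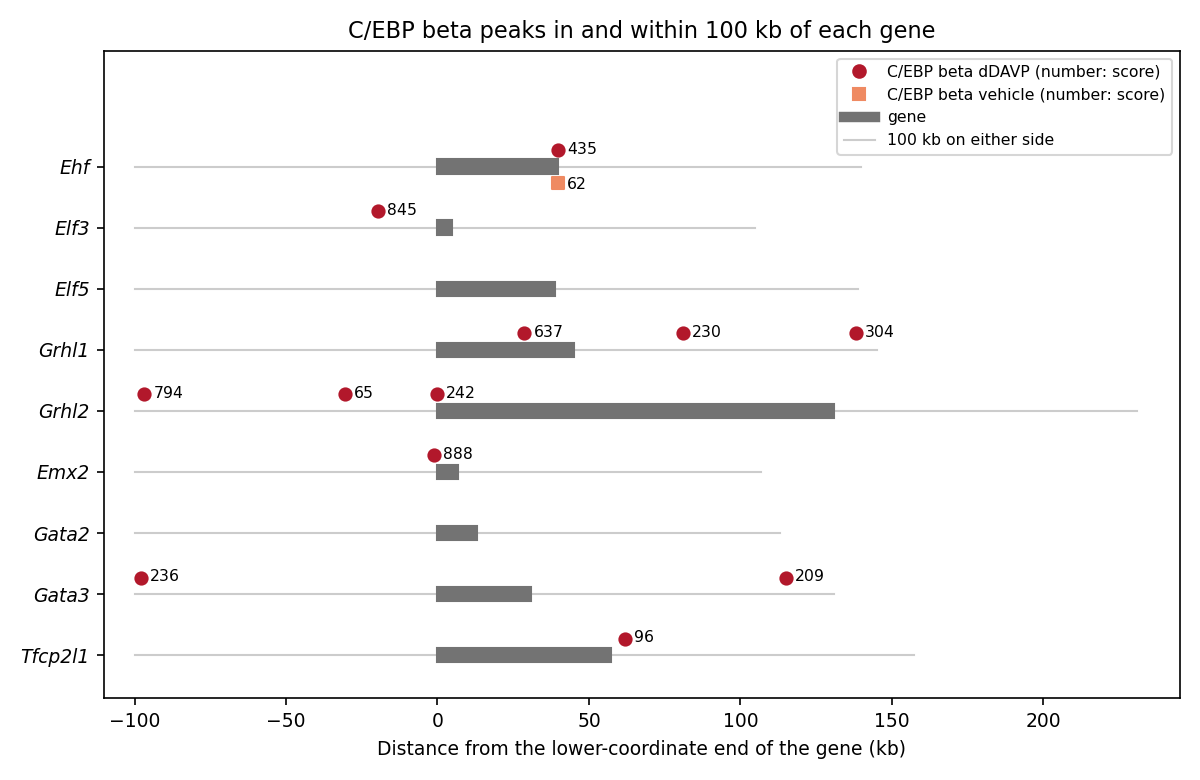
Positions of C/EBP beta peaks in and within 100 kb of each gene, in kb from the gene's end with the lower coordinate. Circles above a gene are dDAVP peaks and squares below it are vehicle peaks, with their deposited scores, and grey bars are genes. The vehicle list has 1 peak, at Ehf, and the dDAVP list 12, at 7 genes.

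Among the ETS genes, Ehf, which encodes a factor of barrier and glandular epithelia, had a C/EBP beta peak at one of its ends in both treatments. The gene lies on chromosome 2 from 103263431 to 103303275. The dDAVP peak spanned 405 bp on chromosome 2 from 103303057 to 103303461, with its centre inside the gene and 16 bp from the end with the higher coordinate. The vehicle peak lay within it, from 103303179 to 103303393, 215 bp wide and centred 11 bp outside the same end. The deposited score, which has no stated scale and can be ranked within a list only, was 435 after dDAVP and 62 after vehicle. It ranked 480 of 2401 in the dDAVP list and 197 of 209 in the vehicle list. The site was therefore in the upper part of the longer list and near the bottom of the shorter one.

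Elf3, an ETS factor induced in injured and inflamed epithelia, lies on chromosome 1 from 135253574 to 135258472 and had 1 dDAVP peak and no vehicle peak. The peak, 352 bp wide, lay on chromosome 1 from 135233903 to 135234254, outside the gene and 19.5 kb from its end with the lower coordinate. Elf3 runs on the minus strand, so the peak was past the 3′ end of the gene, 24394 bp from the start site. Elf3 was the nearest protein-coding gene, although 5 others (Arl8a, Gpr37l1, Rnpep, Timm17a and Lmod1) shared the window. The score of 845 ranked 190 of 2401. Elf5, known from mammary alveolar cells and present in principal cells of the mouse collecting duct, had its nearest peak in both C/EBP beta lists at the Ehf end just described, 109 kb away. Elf5 spans 103412098 to 103450989 on chromosome 2, and that distance placed it just outside the 100 kb limit. Ehf and Elf5 are thus neighbours on chromosome 2, and their only common C/EBP beta site within 200 kb of both was the one at Ehf.

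The grainyhead genes Grhl1 and Grhl2 held more sites than the other genes, 3 each, and neither had a vehicle peak. Grhl1, which encodes a factor of desmosomal genes in skin, had the one peak lying deep inside a gene of this set. The gene spans 24572232 to 24617391 on chromosome 12. The peak spanned 309 bp from 24600777 to 24601085, 20212 bp from the nearer of 2 annotated start sites, with a score of 637 and rank 282. Exons and introns were not told apart, since the gene table gives the ends of genes alone. The other 2 peaks of the Grhl1 window lay nearer to other genes. One, with a score of 230, was inside Klf11, a Krüppel-like factor gene, 1.87 kb from an end. The other, with a score of 304, was inside Rrm2, a subunit gene of ribonucleotide reductase, 2.05 kb from an end.

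Grhl2, whose product drives E-cadherin and claudin genes and the tightness of the collecting duct epithelium, had a dDAVP peak 249 bp outside its end with the lower coordinate. The gene spans 37232821 to 37363569 on chromosome 15. This peak spanned 289 bp, from 37232428 to 37232716, with a score of 242 and rank 957. Its centre also lay inside Gm16136, a long noncoding RNA gene. A weak peak with a score of 65, rank 2305, was 30.7 kb away on the same side. A stronger one, with a score of 794 and rank 211, was 96.8 kb away, from 37135840 to 37136213. A further dDAVP peak, with a score of 464, lay beyond the limit at 112 kb. All 4 sites were on the lower-coordinate side, and Grhl2 was the nearest protein-coding gene to the 3 within the limit.

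The Grhl2 peak with a score of 794 overlapped the promoters of a divergent pair of long noncoding RNA genes, Gm34820 on the plus strand and Gm41301 on the minus strand, and held the start site of Gm34820. The sequence is shown because it is the one stretch of a C/EBP beta peak near these genes that the RefSeq promoter table (GRCm38.p6) holds. It gives the first 157 of the peak's 374 bases, chr15:37135840-37135996, on the plus strand. No base is in capitals, since none of the C/EBP forms searched was in it.
Gm34820 side of the Grhl2 distal peak: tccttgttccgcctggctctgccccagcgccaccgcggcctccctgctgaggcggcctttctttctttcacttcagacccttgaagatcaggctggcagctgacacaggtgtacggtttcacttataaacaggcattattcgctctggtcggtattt

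Emx2, on chromosome 19 from 59458690 to 59465357, had the best-scoring C/EBP beta peak of the 9 genes and no vehicle peak. The dDAVP peak spanned 395 bp on chromosome 19 from 59457421 to 59457815, with a score of 888 and rank 169. Its centre was 1072 bp upstream of the start site of Emx2, which runs on the plus strand, and inside Emx2os, the antisense RNA gene annotated beside it. No other protein-coding gene lay within 100 kb of Emx2.

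Of the GATA genes, Gata3 (chromosome 2, 9857078 to 9887953), a factor of nephric duct and ureteric bud growth, had 2 dDAVP peaks, and both were far from it. The peak at the lower coordinate lay 97.9 kb away with a score of 236 (rank 989), and Gata3 was its nearest protein-coding gene. The other lay 84.1 kb from the gene end with a score of 209 (rank 1114), inside Taf3, which encodes a subunit of the general factor TFIID. Gata2 (chromosome 6, 88193891 to 88207032), which is needed in the mouse collecting duct for normal Aqp2 levels and urine concentration, had no peak of any list within 200 kb. Its nearest C/EBP beta peak was 296 kb away after dDAVP, with a score of 90, and 3280 kb away after vehicle. Tfcp2l1 (chromosome 1, 118627923 to 118685168) had a weak dDAVP peak 4746 bp past the gene's 3′ end, 200 bp wide, with a score of 96 and rank 2002. A site inside its neighbour Clasp1, 199 kb from Tfcp2l1, was in both lists, with a score of 653 after dDAVP and 84 after vehicle.

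Just inside the 100 kb limit lay the peaks at 97.9 kb from Gata3, 96.8 kb from Grhl2 and 92.9 kb from Grhl1. Just outside lay those at 109 kb from Elf5, 112 kb from Grhl2 and 124 kb from Ehf. Of the 12 dDAVP peaks within the limit, the gene followed here was the nearest protein-coding gene for 9, and Klf11, Rrm2 and Taf3 were for the other 3.

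**Figure D2:**
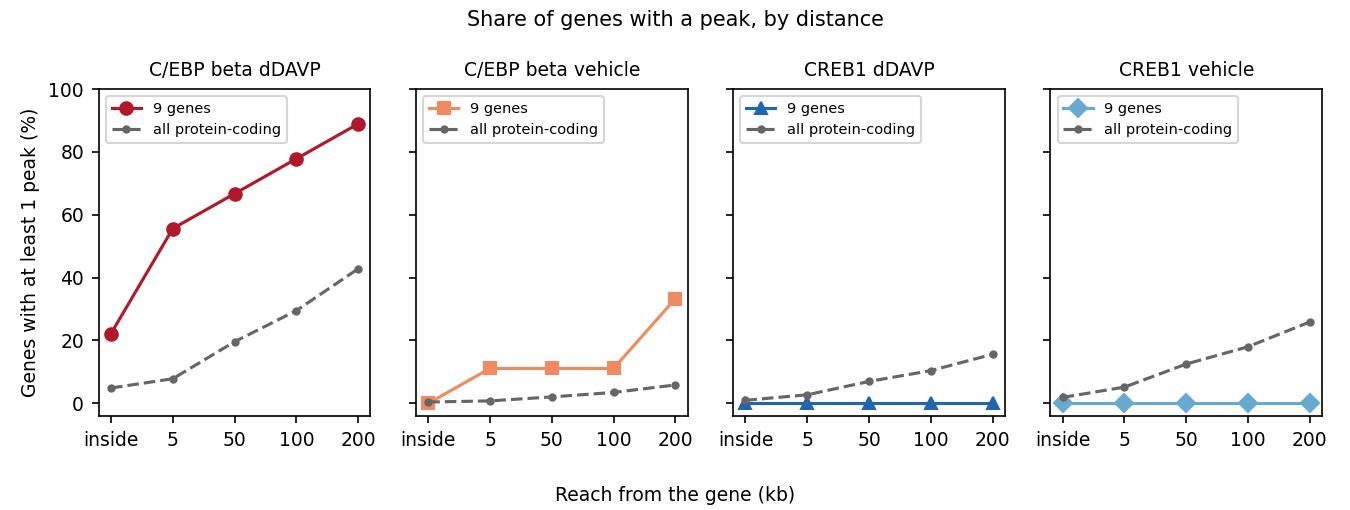
Share of the 9 genes (coloured line) and of all 21631 protein-coding genes (grey dashed line) with at least 1 peak, by distance from the gene in kb, for each of the 4 lists. The 9 genes lie above the grey line in the C/EBP beta dDAVP list at all 5 distances, and at 0 in both CREB1 lists.

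The scores of the 12 peaks ran from 65 to 888 with a median of 273, against 197 for the whole dDAVP list, and 10 of the 12 were above that list median. They fell into strong sites at Emx2 (888), Elf3 (845), Grhl2 at 96.8 kb (794) and inside Grhl1 (637), and weaker ones elsewhere. The 2 peaks below the list median were those of Tfcp2l1 (96) and of Grhl2 at 30.7 kb (65). The median width was 303.5 bp, against 266 bp in the list. The best score of the whole list was 3880.

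Whether a vehicle peak was present did not follow the order of the dDAVP scores at these genes. In the whole dDAVP list, 209 of 2401 peaks (8.70%) overlapped a vehicle peak, and these had high scores, with a median of 1104 and a lowest of 273. Of the top 480 peaks by score, 42.1% had a vehicle peak, while of the 480 next below them 1.46% did. Ehf, with 435, was one of the 7 of 209 shared peaks that scored 435 or less after dDAVP. Its vehicle score of 62 was among the 13 of 209 lowest of that list. Among the 282 dDAVP peaks that scored between 0.8 and 1.25 times the Ehf value, 14 (4.96%) had a vehicle peak. Emx2, Elf3 and the distal Grhl2 site scored higher after dDAVP and had none. Of the peaks in the same relative range around their scores, 64 of 128 (50.0%) had a vehicle peak for Emx2, 59 of 133 (44.4%) for Elf3 and 57 of 144 (39.6%) for the distal Grhl2 site. For the peak inside Grhl1 the share was 43 of 184 (23.4%). The vehicle list was the shorter one, so a peak missing from it does not show that C/EBP beta was absent from the site.

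**Figure D3:**
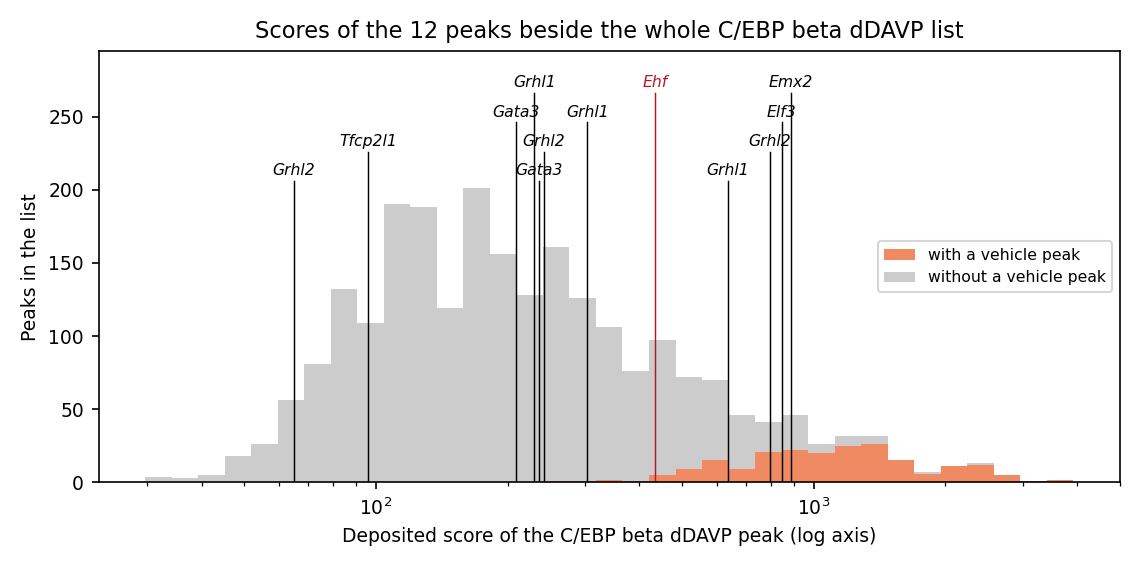
Number of C/EBP beta dDAVP peaks by deposited score (log axis), with those that overlap a vehicle peak in orange and the others in grey. Vertical lines mark the 12 peaks in or within 100 kb of the named genes. Ehf, in red, has a vehicle peak at a score of 435, and Emx2, Elf3 and Grhl2 have none at 888, 845 and 794.

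No CREB1 peak was listed near any of the 9 genes in either treatment. The CREB1 dDAVP list had a peak within 100 kb of 0 of the 9, where 10.4% of all protein-coding genes had one, and the vehicle list 0 of the 9, where 18.0% did. At 200 kb the counts were still 0. The nearest CREB1 peak to any of them was the same site after dDAVP and after vehicle, 310 kb from Elf5 and 458 kb from Ehf. The median distance over the 9 genes was 4130 kb in the dDAVP list and 1060 kb in the vehicle list. These lists differ in length, with 406 CREB1 peaks after dDAVP and 785 after vehicle. The same median over all genes was not computed. At these shares in all genes, 0 of 9 is close to the background. The windows of the 9 genes held a median of 1 other protein-coding gene, with 0 to 5, against a median of 4 over all genes. The part of gene density in the missing CREB1 peaks was not tested. With no CREB1 peak within 200 kb of these genes, none of the 12 C/EBP beta peaks could overlap one, so this is not a separate result.

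**Figure D4:**
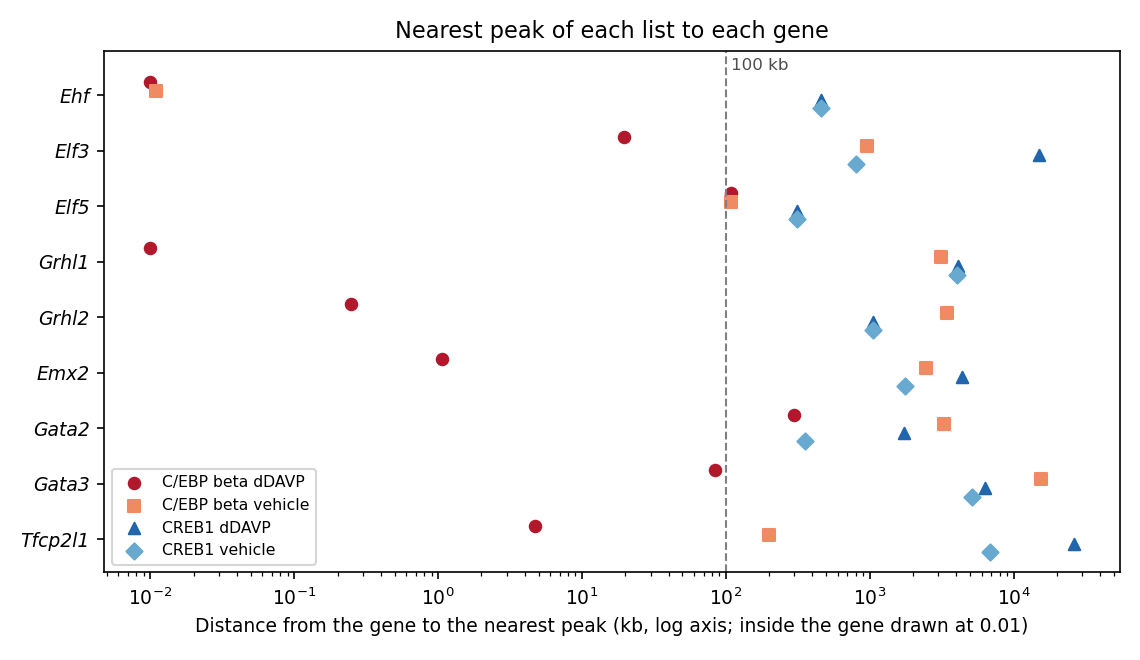
Distance in kb (log axis) from each gene to the nearest peak of each list. Peaks inside the gene are drawn at 0.01 kb, and the dashed line marks 100 kb. All CREB1 symbols lie right of that line, from 310 kb upwards, while 7 of 9 C/EBP beta dDAVP circles lie left of it.

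A relative of these genes did carry CREB1. Tfcp2, the ubiquitous paralog of Tfcp2l1, had a CREB1 peak at its start in both lists, with its centre 73 bp (dDAVP) and 45 bp (vehicle) from an end of the gene. The promoters of the paralogs and of Emx2 are shown from 250 bases before to 50 after the RefSeq start site (GRCm38.p6), 5′ to 3′ on the gene's strand, to set a promoter under a CREB1 peak beside one without. Capitals mark TGACG, the short core of the cAMP response element (CRE), on either strand. Tfcp2 is at chr15:100551959-100552258 on the minus strand, Tfcp2l1 at chr1:118627695-118627994 and Emx2 at chr19:59458440-59458739, both on the plus strand.
Tfcp2: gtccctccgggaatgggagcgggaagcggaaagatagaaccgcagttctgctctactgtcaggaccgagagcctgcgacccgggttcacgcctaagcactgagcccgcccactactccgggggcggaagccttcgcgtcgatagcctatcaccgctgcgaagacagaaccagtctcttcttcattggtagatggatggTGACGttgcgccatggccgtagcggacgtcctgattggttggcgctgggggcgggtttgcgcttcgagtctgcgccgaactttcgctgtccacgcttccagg
Tfcp2l1: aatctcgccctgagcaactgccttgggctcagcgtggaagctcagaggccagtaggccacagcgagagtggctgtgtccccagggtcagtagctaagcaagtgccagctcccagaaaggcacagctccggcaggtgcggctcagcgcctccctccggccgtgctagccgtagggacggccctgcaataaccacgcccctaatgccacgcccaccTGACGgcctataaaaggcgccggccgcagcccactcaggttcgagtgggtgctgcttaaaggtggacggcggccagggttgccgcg
Emx2: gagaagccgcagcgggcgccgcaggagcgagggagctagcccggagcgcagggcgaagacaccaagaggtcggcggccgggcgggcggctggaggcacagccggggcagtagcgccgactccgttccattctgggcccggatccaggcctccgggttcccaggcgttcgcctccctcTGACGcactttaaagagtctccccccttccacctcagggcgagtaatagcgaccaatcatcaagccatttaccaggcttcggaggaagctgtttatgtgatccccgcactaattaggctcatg

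Each of the 3 promoters had 1 TGACG, and none had the full CRE, TGACGTCA. All 3 were shown with the core, so they cannot tell whether it separates promoters with a CREB1 peak from those without. They show only that the core was present at Tfcp2l1 and Emx2 without a listed CREB1 peak. Of 10 promoters of these genes, 3 had TGACG (1 each of Elf5, Emx2 and Tfcp2l1), and none of the 10 was under a CREB1 peak. Over the table, TGACG was in 20.8% of 32851 promoters, and TGACGTCA, which includes the core, in 1.79%. Among promoters under a CREB1 peak, TGACG was in 89.7% of 438 in the dDAVP list and 84.9% of 856 in the vehicle list, and TGACGTCA was in 27.4% of those in the dDAVP list and 23.0% of those in the vehicle list.

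The promoter table held 10 promoters of 7 of the 9 genes, and Ehf and Grhl2 were not matched. The C/EBP palindrome TTGCGCAA and the related TTACGTAA were in 0 of the 10. The looser form TTGCNNAA, which includes TTGCGCAA, was in both promoters of Elf5 as TTGCCTAA and TTGCTCAA. The C/EBP and ATF composite TGATGCAA was in the inner promoter of Grhl1, at position -221 from its start. Over all promoters these forms were in 0.183% (TTGCGCAA), 0.119% (TTACGTAA), 10.8% (TTGCNNAA) and 0.895% (TGATGCAA), on both strands. Under C/EBP beta peaks, TTGCNNAA was in 36.5% of 351 promoters in the dDAVP list and 65.1% of 43 in the vehicle list. TGATGCAA was in 5.13% of those in the dDAVP list and 11.6% of those in the vehicle list. Neither Elf5 nor the inner Grhl1 promoter was under a peak, and none of the 10 promoters was. Ehf and Grhl2, each with a C/EBP beta dDAVP peak at a gene end, are outside this count.

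Other transcription factors of the kidney tubule and of epithelia were set beside these genes. Of 26 such genes, 11 had a C/EBP beta dDAVP peak within 100 kb and 0 had a vehicle peak, against the 29.5% and 3.47% of all genes given above. Within 5 kb, 4 of the 26 had a dDAVP peak, against 7.83% of all genes. Among those of the 26 with no dDAVP peak inside the gene, the closest peaks were at Id1, an inhibitor of bHLH factors (4.25 kb from a gene end, score 249), and at Nr3c1, the glucocorticoid receptor (5.87 kb, score 329). Esrrb, an orphan nuclear receptor gene, and Tfap2a, an AP-2 factor gene, each had a peak inside the gene, at Esrrb 10.9 kb from an end with a score of 101 and at Tfap2a 12.1 kb from an end with a score of 393. Pax2 also had one inside the gene, 43.3 kb from an end with a score of 112, and was named after its values were seen. Hnf4a, which encodes a tubule nuclear receptor factor, had its nearest peak 19.3 kb away. CREB1 peaks were within 100 kb of 3 of the 26 after dDAVP (Hnf4a, Ovol1 and Cux1), against 10.4% of all genes, and of these and Ovol2 after vehicle, against 18.0%.

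Among 24 paralogs of the 9 genes, 8 had a C/EBP beta dDAVP peak within 100 kb, close to the 29.5% of all protein-coding genes. Within 5 kb, 1 of the 24 had a dDAVP peak, against 7.83% of all genes. A vehicle peak was within 100 kb of 3 of the 24, where 3.47% of all genes had one, and these 3 were among the 8. Elf1, an ETS factor of wide expression, had a peak inside the gene, with a score of 967 after dDAVP and 95 after vehicle. Elf2 had one 17.6 kb away, with a score of 763 after dDAVP and 118 after vehicle. The third was Fli1, with scores of 1423 after dDAVP and 172 after vehicle, named after its values were seen. Ets1, Ets2 and Erf had dDAVP peaks 6.46 kb, 7.99 kb and 22.5 kb from a gene end, with scores of 49, 399 and 329, and no vehicle peak. CREB1 peaks were within 100 kb of Tfcp2 alone after dDAVP, where 10.4% of all genes had one, and of Tfcp2, Elf1 and Spdef after vehicle, where 18.0% did.

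Of 6 principal cell genes (Aqp2, Avpr2, Scnn1a, Scnn1b, Scnn1g and Fxyd4), 4 had a C/EBP beta peak within 100 kb after dDAVP and 1 after vehicle, where 29.5% and 3.47% of all protein-coding genes did. Of 3 intercalated cell genes (Atp6v1b1, Foxi1 and Slc4a1), 2 had one after dDAVP and 0 after vehicle, against the same shares of all genes. Within 5 kb, 4 of the 6 and 0 of the 3 had a dDAVP peak, against 7.83% of all genes, beside 5 of the 9 genes followed here. Lists of 6 and 3 genes are too short to set against such shares, and a list of 9 is short too. A peak near a marker gene does not show that the cells expressed it.

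Grhl1 and Grhl2 had the most peaks summed over the 4 lists, 3 each, all in the C/EBP beta dDAVP list. The same 4 counts were found at 153 genes for Grhl1 and 155 for Grhl2, outside their own neighbourhoods. The first 3 by symbol were 0610010K14Rik, 1700020D05Rik and 1700102P08Rik for both. The pattern is therefore shared by many genes.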

How the data were processed

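Chromatin from mpkCCD cells was immunoprecipitated with antibodies to CREB1 or C/EBP beta and sequenced. The labels describe 22 samples, of which 12 were immunoprecipitated and 10 were inputs, and groups came from the sample titles. Each of the 4 deposited files is the peak list of 1 group. Per the submitters' processing notes, BWA, SAMtools, MACS2 and bedtools were used with mm10; versions, roles and the way replicates were joined are not given in the sources used here. Scores are the authors' deposited values per C/EBP beta peak, with no stated scale, and CREB1 lists have none. All C/EBP beta peak names are those of replicate 1 and state MACS2 settings (bandwidth 300, duplicates 1, q 0.01), per the file.

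Genes came from a RefSeq table of GRCm38.p6 (mm10), and start sites, strand and sequence from its promoter table. Positions are counted from 1. Peaks were counted by their centre and an overlap of 1 bp or more made them shared, with Python 3.11.15 and pandas 2.3.3. The counting was checked on peaks placed at known genes. The members and lists were chosen with earlier results of these data known. No test was run, because each group has 1 list. From each other gene list, up to 6 genes with a peak within 100 kb were named, the closest to a gene end first. Alternatives covered the distance, the score, the overlap and the assignment of peaks.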

Additional observations from a re-analysis of the deposited data

How the results depend on the processing

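The CREB1 counts of 0 of 9 genes were the same at every distance from 0 to 200 kb, by any base of a peak and by the nearest gene alone. The C/EBP beta dDAVP count of 7 of 9 was 2 inside genes, with 2 peaks (4.87% of all genes), and 5 at 5 kb, with 5 peaks. It was 6 at 50 kb (19.6% of all genes) and 8 at 200 kb (42.8%). With the dDAVP list reduced to the 209 best scores it was 2, with 2 peaks (3.74% of all genes), Emx2 and Elf3. In the upper part of the list by score, from the median up, it was 6 (17.2%). With each peak counted for its nearest gene alone it stayed at 7, against 8.59% of all genes. Under this rule a gene with many neighbours can lose peaks to them. The windows of the 9 genes held a median of 1 other protein-coding gene, against 4 over all genes. The part of gene density in this count was not tested. Over all genes at 5 kb the share was 7.83%.

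The C/EBP beta vehicle count of 1 of 9, with 1 peak, was 0 inside genes (0.416% of all genes) and 1 at 5 kb (0.781%) and at 50 kb (2.04%). It was 3 at 200 kb, for 2 separate peaks (5.85%), because the Ehf peak then counted for Elf5 too. It was 0 in the upper part of that list by score (1.82%). By nearest gene alone 0.874% of all genes had a vehicle peak. The Ehf overlap between treatments was the only one under each of the 3 rules for overlap.

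For CREB1 after dDAVP, the share of all genes was 0.966% inside genes, 2.72% at 5 kb, 6.97% at 50 kb, 15.6% at 200 kb and 1.85% by nearest gene alone. After vehicle these shares were 1.89%, 5.17%, 12.5%, 25.9% and 3.56%. Among genes anywhere between the shortest and the longest of the 9 in length, a wide range that is not matched to them, they were 31.8% and 3.77% for C/EBP beta after dDAVP and vehicle, and 11.4% and 20.0% for CREB1. The Tfcp2l1 peak lay 4746 bp from a gene end but 61969 bp from the start site. Of the 10 promoters, 3 had an 8-letter form, 0 an exact palindrome and 3 the TGACG core.

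No paired analysis was possible because the files hold 1 list per group, so replicates could not be left out either. Read depth is unknown, and each C/EBP beta peak is named for replicate 1; whether its score is a value of that replicate alone is not given in the sources used here.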
